A study of Mus musculus with 3 samples.

Results

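The MHC class II genes described here are 10 genes of the 31053 in the deposited matrices, taken by symbol: H2-Aa, H2-Ab1, H2-Eb1, H2-DMa, H2-DMb1, H2-DMb2, H2-Oa, H2-Ob, Cd74 and Ciita. Their transcripts were followed in B cells, dendritic cells, monocytes and macrophages of the mouse pancreas. The rule uses gene names and no threshold on a measured value. All 10 were detected in each of the 3 libraries.

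The libraries are single-cell RNA sequencing of live CD45+ cells sorted from digested pancreas, 1 library for each of 3 groups. PBS mice received the vehicle, and the other groups received WGP, a particulate beta-glucan from yeast, by intraperitoneal injection 3 days (3-day WGP) or 7 days (7-day WGP) before euthanization. Per the methods of the study, the mice were C57BL/6, 6 to 8 weeks old and of both sexes. The sources used here do not say how many mice were pooled in a library. Barcodes with at least 1000 UMIs (unique molecular identifiers, 1 per captured transcript) and at most 30% mitochondrial UMIs numbered 5249, 4879 and 4174. Values in threes are in the order PBS, 3-day WGP, 7-day WGP throughout. Of the 14302 barcodes, 13753 remained after likely doublets were removed. With 1 library per group there is no replicate, so no difference below was tested, and all intervals (95%) reflect the counting of UMIs or cells alone.

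Class II molecules display peptides from endocytosed material to CD4+ T cells. The classical molecules are an alpha and a beta chain, I-A from H2-Aa and H2-Ab1 and I-E with its beta chain from H2-Eb1. Cd74 encodes the invariant chain that fills the peptide groove during transport, H2-DM exchanges the remaining fragment for peptide, H2-O restrains H2-DM, and Ciita encodes the coactivator on which transcription of the classical genes depends. B cells and conventional dendritic cells make class II constitutively, while macrophages raise it in response to interferon gamma. C57BL/6 mice make no I-E alpha chain, so that H2-Eb1 transcript in this strain is not a measure of surface I-E. H2-Ea-ps, the annotated I-E alpha gene, was not analysed here.

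The genes lie in 3 places of the mouse genome (GRCm38, GENCODE vM21). All 8 H2 genes are on chromosome 17, from H2-Oa at chr17:34092340-34095234 through H2-DMa, H2-DMb2, H2-DMb1, H2-Ob, H2-Ab1 and H2-Aa to H2-Eb1 at chr17:34305867-34316674. H2-Aa is the only member on the minus strand. H2-DMb2 (chr17:34143307-34151555) and H2-DMb1 (chr17:34153072-34160230) are neighbouring copies of similar sequence, so the division of reads between them is less certain than the other values. Ciita is at chr16:10480059-10528418, and Cd74 lies on another chromosome.

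Promoter sequences are shown because the members fell into a set that was shared by all antigen-presenting cells and a set that was not, and members of both sets carry the same promoter letters. Class II promoters are known for an X box and a Y box, bound by RFX and NF-Y, on which CIITA assembles. RefSeq promoter entries (GRCm38.p6, 250 bases before to 50 after the start) matched 7 members, with none for H2-Ab1, Cd74 and Ciita. The letters TGATTGG, a Y-box core, were in 6 of the 7, the exception being both starts of H2-DMa. The letters AACNNATGA, part of an X box, were in 4. Both strands were searched and the 2 matches do not overlap. Of 32851 promoters in the table, 7.82% held TGATTGG, 2.85% held AACNNATGA and 0.307% held both. The 57 bases around the Y-box letters of each are given 5′ to 3′ on the strand of the gene, with both matches in capitals.
H2-Eb1, chr17:34305761-34305817, plus strand: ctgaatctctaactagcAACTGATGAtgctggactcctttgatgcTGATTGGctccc
H2-Aa, chr17:34287862-34287918, minus strand: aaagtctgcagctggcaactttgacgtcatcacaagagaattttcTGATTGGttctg
H2-DMb1, chr17:34153083-34153139, plus strand: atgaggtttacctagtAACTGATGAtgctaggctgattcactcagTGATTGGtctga
H2-DMb2, chr17:34145112-34145168, plus strand: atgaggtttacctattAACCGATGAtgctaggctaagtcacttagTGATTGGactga
H2-Ob, chr17:34238801-34238857, plus strand: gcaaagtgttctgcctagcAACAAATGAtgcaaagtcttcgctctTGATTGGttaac
H2-Oa, chr17:34092289-34092345, plus strand: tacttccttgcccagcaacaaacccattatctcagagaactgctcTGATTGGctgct

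In the 4 promoters with both matches the X-box letters came first, with 19 bases between the matches in H2-Eb1, 20 in H2-DMb1 and H2-DMb2, and 17 in H2-Ob. The Y-box letters began 45 to 92 bases before the start over the 6 genes. A match is a description of letters and not of binding, which was not measured.

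The cells were clustered without the 10 members, so their levels did not decide any class or state. The named classes held 1943, 838 and 515 B cells, 269, 204 and 336 conventional dendritic cells, 40, 76 and 37 plasmacytoid dendritic cells, 251, 547 and 79 plasma cells and 862, 760 and 1447 monocytes and macrophages, the last in 11 sub-clusters. T cells, gamma-delta T cells and NK cells make little class II in the mouse and served as background. Their classical level, the summed UMIs of H2-Aa, H2-Ab1 and H2-Eb1 as counts per 1000000 UMIs of the cells (CPM), lay between 121 and 409.5 CPM. Free RNA, read from barcodes of at most 100 UMIs, held 5121, 4986 and 8622 CPM of classical transcript. Judged by acinar cell genes, free RNA made up 1.13%, 1.92% and 0.966% of the UMIs of B cells, 2.51%, 2.79% and 0.947% of those of conventional dendritic cells and 9.49%, 2.61% and 1.10% of those of monocytes and macrophages. The share of acinar transcript that macrophages had taken up was not tested.

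The libraries held cells of both sexes in different mixes. Among monocytes and macrophages with a sex-linked transcript, cells with Xist and no Y transcript (Xist cells) made up 99.3%, 14.1% and 49.7%. Among conventional dendritic cells they were 80.2%, 11.3% and 29.6%, and among B cells 26.6%, 25.1% and 29.9%. The mix of mice thus changed along with WGP in the myeloid classes, and values within Xist cells or within cells with a Y transcript (Y cells) are given beside the results. Any 2 libraries shared at most 9 cell barcodes.

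Among the classes, classical class II was highest in conventional dendritic cells, lower in B cells, and ran over the widest range among monocytes and macrophages. Type 1 conventional dendritic cells, which take up dead cells and cross-present, held 27341, 28521 and 27299 CPM of classical transcript. Type 2 conventional dendritic cells, the main primers of CD4+ T cells, held 27511, 22807 and 24307 CPM. Migratory CCR7 dendritic cells held 18598 and 18796 CPM after 3 and 7 days. The ranges of the conventional types overlapped over the libraries, and the migratory cells lay below both. Within Y cells after 3 days the order turned, with 22754 CPM in migratory and 20011 CPM in type 2 cells. B cells held 9381, 9493 and 9263 CPM, nearly level in the 3 libraries. Plasmacytoid dendritic cells held 5566, 4876 and 4439.5 CPM, and plasma cells, the antibody-secreting stage that is known to shut Ciita off, 1714, 2003 and 888 CPM.

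**Figure D1:**
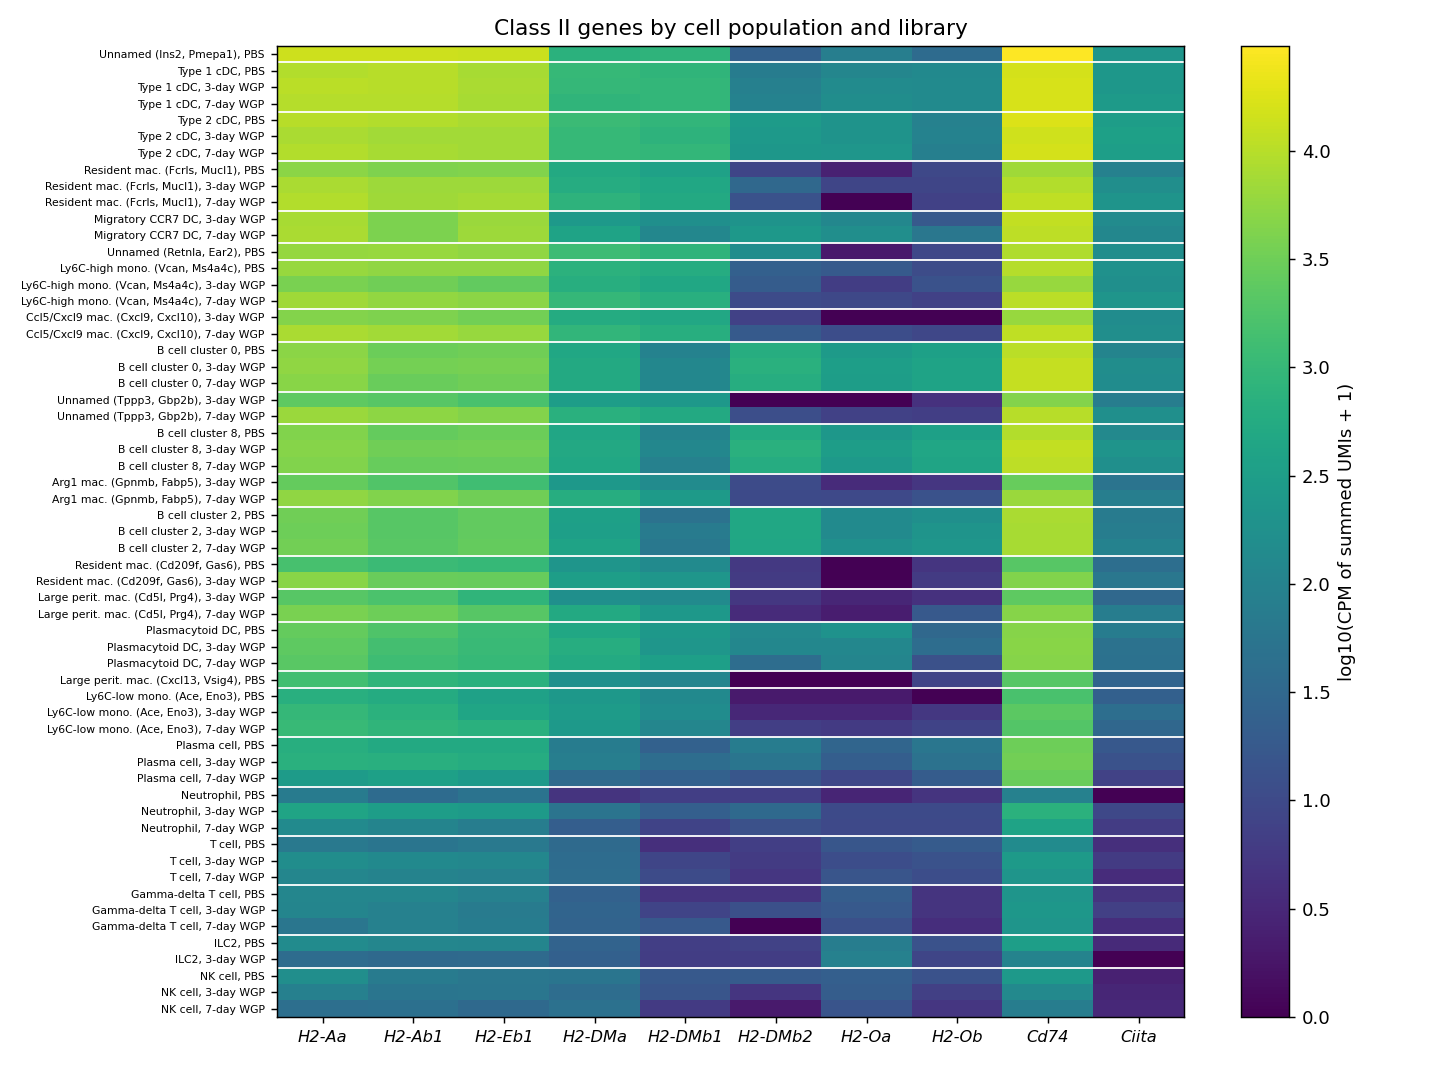
Heat map of log10(CPM + 1) for each class II gene (columns) in each cell population and library with at least 20 cells (rows, grouped by population and ordered by classical class II level). H2-DMb2, H2-Oa and H2-Ob are low in most monocyte and macrophage rows and high in B cells, while H2-Aa, H2-Ab1, H2-Eb1 and Cd74 fall together from top to bottom.

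The highest level of any population was in a small unnamed sub-cluster of the monocyte and macrophage class. Led by Ins2, Pmepa1 and Mmp12, it held 41374 CPM (40536 to 42224) in its 32 PBS cells, with Cd74 at 30508 CPM. No marker list named it, and Ins1 and Ins2, the insulin genes of beta cells, are among its 10 leading genes. So is Cadm1, from the marker list of type 1 conventional dendritic cells, and whether these cells are macrophages was not tested. It held 9 cells after 3 days and 0 after 7 days. At the low end were Ly6C-low monocytes, the patrolling monocytes of blood, at 1619, 2153 and 2652 CPM. A sub-cluster led by Cxcl13, Vsig4 and Lyve1 held 2868 CPM in its 33 PBS cells, and is called by those genes here although the list of large peritoneal macrophages scored highest for it.

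Resident macrophages fell into a class II-high and a class II-low sub-cluster. In PBS the sub-cluster led by Fcrls held 13552 CPM (13443 to 13661) in 386 cells. The sub-cluster led by Cd209f, Gas6 and Cd163 held 3685 CPM (3596 to 3776) in 175 cells, well below the first. An unnamed sub-cluster led by Retnla and Ear2 held 17749 CPM in 69 PBS cells. Of the classical UMIs of all PBS monocytes and macrophages, 57.0% were in the Fcrls cells, 17.3% in the Retnla cells and 6.24% in the Cd209f cells, which were 20.3% of the class.

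**Figure D2:**
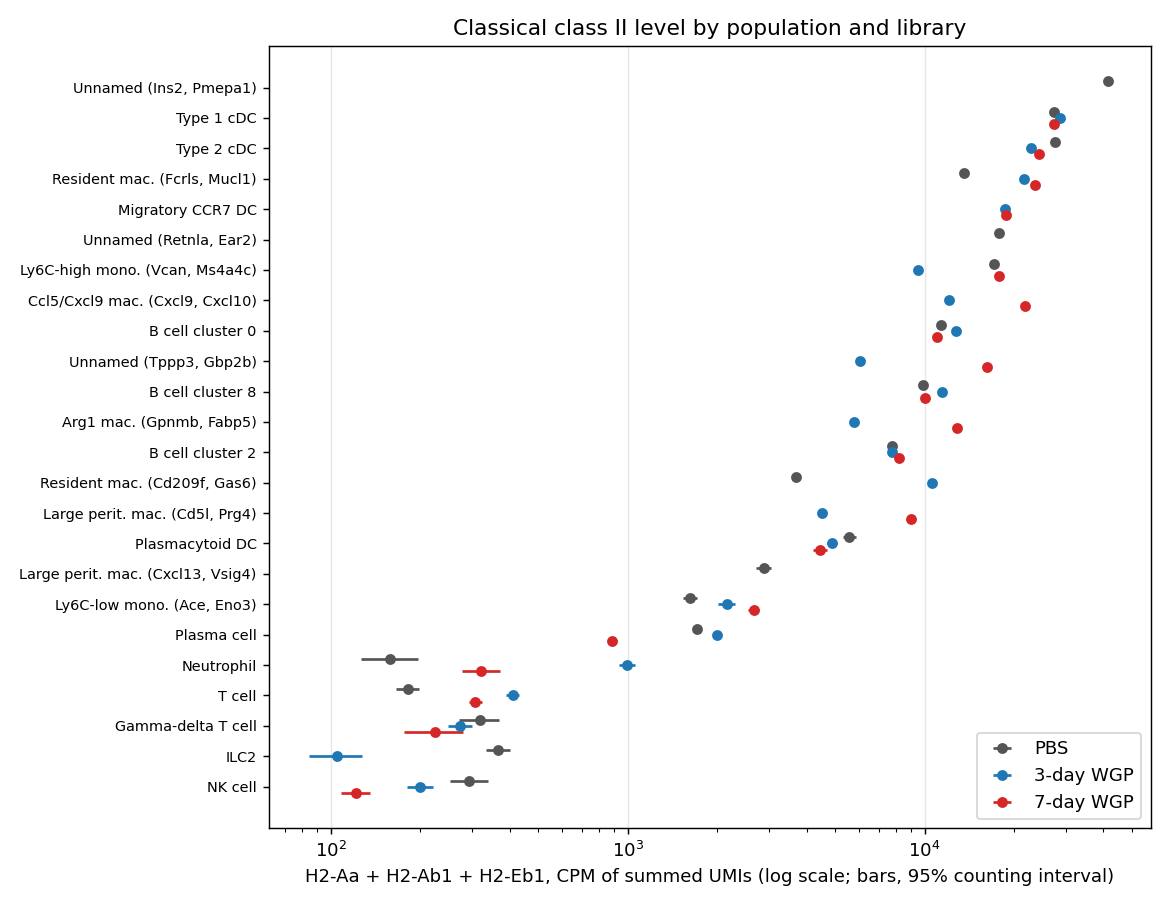
Classical class II level (H2-Aa + H2-Ab1 + H2-Eb1, CPM, log axis) in each population with at least 20 cells in a library, with 95% counting intervals; mac., macrophage; perit., peritoneal; mono., monocyte. The 3 libraries sit close together in B cells and type 1 conventional dendritic cells (cDC) and apart in most macrophage states.

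Most neighbours in this order could not be separated, since the ranges of their libraries overlapped. The steps without overlap between neighbours lay below the Ins2 sub-cluster, below the migratory dendritic cells, below the plasmacytoid dendritic cells and below the Cxcl13 sub-cluster. The Ins2, Retnla and Cxcl13 sub-clusters rest on 1 library, where no spread is known.

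The spread from cell to cell also differed between classes. After each cell was thinned to 1000 UMIs, which left out no cell, B cells held a median of 10, 11 and 10 classical UMIs, and 1.08%, 2.86% and 1.55% of them had none. Monocytes and macrophages held a median of 3, 4 and 15, and 35.0%, 21.1% and 11.3% had none. In PBS their upper quartile was 20 UMIs, so that high and empty cells stood side by side. The same was seen within 1 state, as the Fcrls resident cells of PBS had a lower quartile of 1 and an upper quartile of 26 UMIs.

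**Figure D3:**
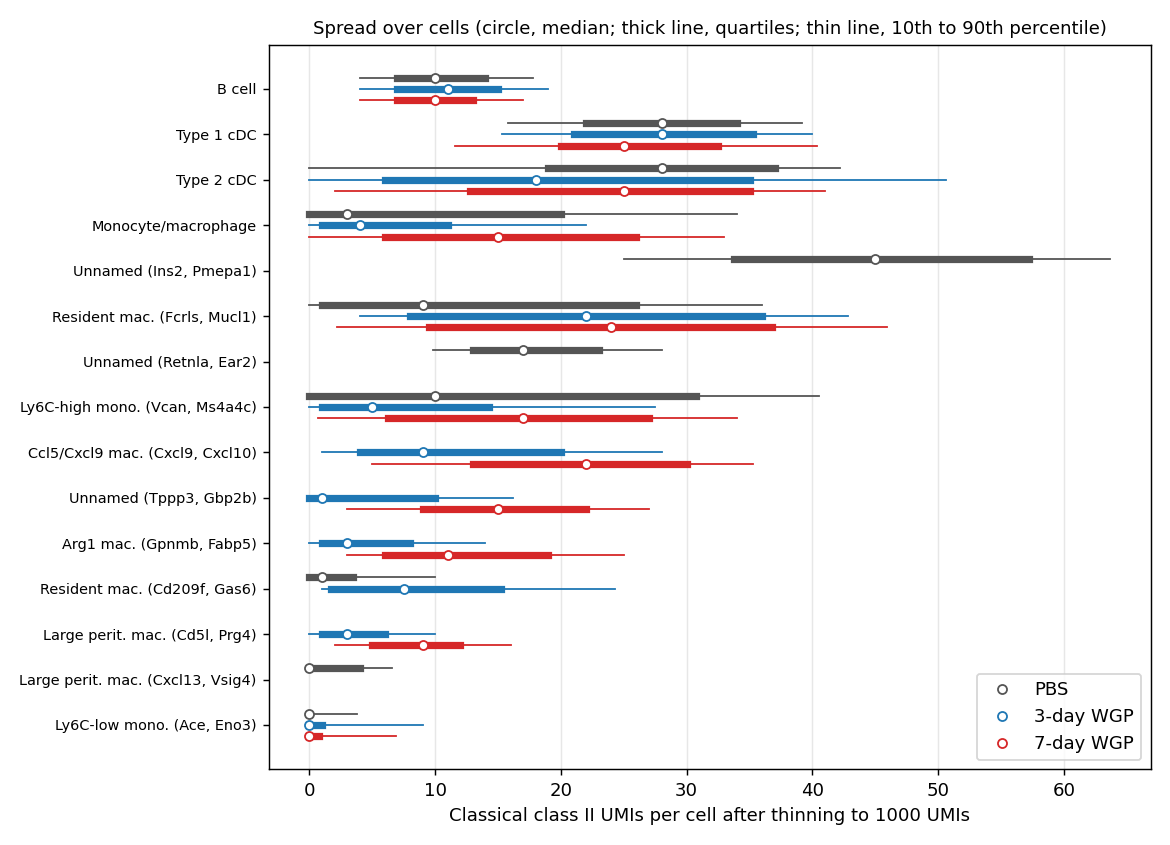
Classical class II UMIs per cell after thinning to 1000 UMIs, by population and library; circles are medians, thick lines quartiles and thin lines the 10th to 90th percentile. B cells form a narrow band around a median of 10 UMIs, and the PBS monocytes and macrophages have a median of 3 and an upper quartile of 20.

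The classical genes went together from cell to cell, with the highest correlations in macrophages. Pearson's r between H2-Aa and H2-Ab1 in thinned cells was 0.828, 0.790 and 0.701 in monocytes and macrophages (862, 760 and 1447 cells), 0.533, 0.649 and 0.633 in conventional dendritic cells and 0.340, 0.340 and 0.281 in B cells. These cells share a library and were thinned to the same depth, and the values are descriptions. The classical UMIs of a thinned cell had a standard deviation of 14.96, 11.09 and 12.17 in macrophages and 5.159, 5.663 and 5.035 in B cells. Since r depends on this spread and on counting noise, its order over classes does not show tighter regulation in macrophages. H2-Eb1 made up 29.5% to 31.4% of the classical UMIs of the 3 classes in PBS. It was lower in large peritoneal macrophages led by Cd5l, at 19.2% and 22.8% after 3 and 7 days, and in Arg1 macrophages, at 22.0% and 24.9%. These states were not alone in this, as plasmacytoid dendritic cells had 20.1%, 22.7% and 22.8% and Ly6C-low monocytes 23.1%, 20.1% and 27.0%.

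Cd74, the invariant chain gene, was at 9127, 9519 and 9626 CPM in B cells, 16349.6, 15214 and 15513 CPM in conventional dendritic cells and 6196, 3952 and 9122 CPM in monocytes and macrophages. These libraries read the 3' end, so a transcript counts as 1 UMI whatever its length. How well each gene was captured and mapped was not measured. Ratios between genes therefore serve to compare classes and are not ratios of molecules. Per classical UMI of the same cells, Cd74 stood at 0.973 to 1.04 in B cells, 0.601, 0.598 and 0.615 in conventional dendritic cells and 0.552, 0.544 and 0.539 in macrophages. The B cell ratio was thus above that of both pooled classes in every library, though not above that of every population. Plasmacytoid dendritic cells had 0.844, 1.02 and 1.06, and Ly6C-low monocytes 0.956, 1.05 and 0.716. Plasma cells had 1.80, 1.67 and 3.24, with Cd74 still at 3077, 3348 and 2879.7 CPM.

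The peptide-editing genes separated the lineages. H2-DMa, the alpha chain of H2-DM, was found in all these classes, with 413, 414 and 442 CPM in B cells, 1047, 878 and 907 CPM in conventional dendritic cells and 509.8, 328 and 779 CPM in monocytes and macrophages. Its beta chain came mostly from H2-DMb2 in B cells and from H2-DMb1 in myeloid cells. In B cells H2-DMb2 was at 535, 564 and 519 CPM and H2-DMb1 at 75.6, 89.2 and 82.2 CPM. Macrophages and monocytes had H2-DMb2 at 23.5, 10.1 and 12.4 CPM and H2-DMb1 at 357, 238 and 517 CPM. As a share of the beta-chain UMIs in PBS, H2-DMb2 was 87.6% (86.8 to 88.4%) in B cells, 24.5% (22.8 to 26.3%) in type 2 and 7.91% (6.65 to 9.32%) in type 1 conventional dendritic cells, and 6.17% (5.40 to 7.01%) in macrophages.

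Migratory CCR7 dendritic cells were nearer to B cells in this share than the other dendritic cells, at 54.1% (44.3 to 63.7%) after 3 days and 67.7% (57.3 to 77.1%) after 7 days. Their H2-DMb1 level was 168 and 116 CPM, against 789 and 880.4 CPM in conventional dendritic cells as a whole. Within PBS macrophages, 158 of the 217 H2-DMb2 UMIs were in the Retnla sub-cluster, whose level was 156 CPM beside 7.79 CPM in the Fcrls resident cells. How reads common to both copies were divided was not tested.

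H2-Oa and H2-Ob, the chains of the H2-DM antagonist H2-O, were at background in the macrophage class as a whole. B cells held 206, 208 and 227 CPM of H2-Oa and 268, 287 and 305 CPM of H2-Ob. Conventional dendritic cells held 162, 158 and 195 CPM of H2-Oa and 109, 111 and 106 CPM of H2-Ob. In monocytes and macrophages H2-Oa was at 3.78, 2.71 and 7.97 CPM and H2-Ob at 7.14, 5.33 and 8.68 CPM, below the T cell levels of 14.6, 10.5 and 14.0 and 18.1, 12.7 and 10.3 CPM. This held although the classical level of macrophages was above that of B cells in PBS and 7-day WGP. The Ins2 sub-cluster stood apart, with H2-Oa at 80.2 CPM (47.5 to 127) and H2-Ob at 35.7 CPM (15.4 to 70.3) in its PBS cells, and an H2-O share of 6.84% (4.52 to 9.86%) of the summed H2-O and H2-DM UMIs.

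Counted by cell, after thinning 20.4%, 23.2% and 22.3% of B cells had an H2-Oa UMI, against 0.696%, 0.132% and 0.760% of macrophages and 1.15%, 0.162% and 0.594% of T cells. Without thinning the shares were 59.5%, 62.6% and 67.0% of B cells, 2.78%, 2.63% and 7.33% of macrophages and 5.53%, 5.01% and 8.62% of T cells. The median depth was 3803, 4226 and 5021 UMIs in B cells, 10192, 13978 and 10714 in macrophages and 3656, 5063 and 6203 in T cells. Macrophage shares were thus near those of the background cells, and those of B cells far above.

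**Figure D4:**
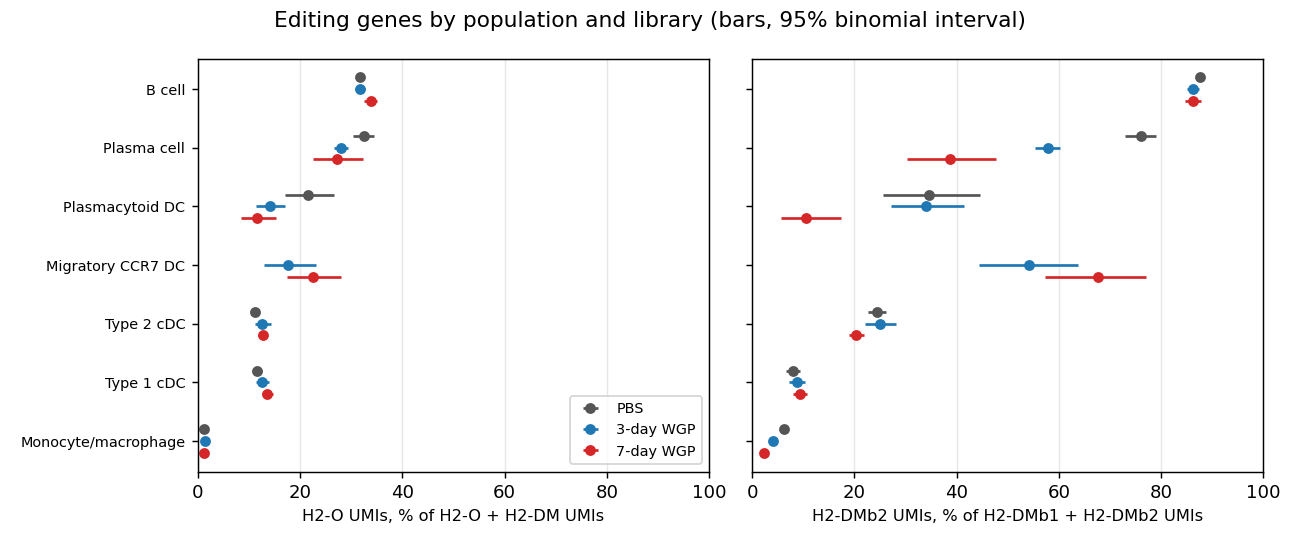
Share of H2-O UMIs among H2-O and H2-DM UMIs (left) and of H2-DMb2 among H2-DMb1 and H2-DMb2 UMIs (right) by population and library, with 95% binomial intervals. In B cells the shares are 31.6%, 31.7% and 33.8% and 87.6%, 86.3% and 86.3%, and in monocytes and macrophages 1.21%, 1.37% and 1.26% and 6.17%, 4.08% and 2.34%.

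H2-O as a share of the summed H2-O and H2-DM UMIs was 31.6%, 31.7% and 33.8% in B cells, 11.5%, 12.8% and 13.3% in conventional dendritic cells and 1.21%, 1.37% and 1.26% in macrophages. The order of these classes was the same in all 3 libraries. Plasmacytoid dendritic cells had 21.5%, 14.0% and 11.5% and plasma cells 32.5%, 28.0% and 27.2%.

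Ciita, the coactivator gene, was found in B cells, plasma cells, dendritic cells, and monocytes and macrophages of each library. Its level was 95.4, 117 and 124 CPM in B cells, 274, 260.4 and 294 CPM in conventional dendritic cells and 85.4, 73.3 and 148 CPM in monocytes and macrophages. It was lower in plasma cells, at 16.0, 12.5 and 6.67 CPM, and in Ly6C-low monocytes, at 22.8, 39.9 and 30.5 CPM. T, gamma-delta T and NK cells held 1.56 to 6.09 CPM. Per 1000 classical UMIs, Ciita stood at 10.2, 12.3 and 13.4 in B cells, 10.1, 10.2 and 11.7 in conventional dendritic cells and 7.60, 10.1 and 8.76 in macrophages, close across these pooled classes. Among the sub-clusters of the monocyte and macrophage class it ran from 5.17 in the Ins2 cells of PBS to 18.5 in Ly6C-low monocytes after 3 days.

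Over 59 sums of a population and library with at least 20 cells, Ciita followed the mean of H2-Aa, H2-Ab1, H2-Eb1 and Cd74 with a Pearson's r of 0.966 on the log2(CPM + 10) scale. It ranked 5 among 6722 genes, directly after the 4 genes of the mean itself. H2-DMa (0.948) and H2-DMb1 (0.901) were close behind. H2-DMb2 (0.531), H2-Ob (0.450) and H2-Oa (0.328) stood at ranks 232, 446 and 1012. The non-members with the most similar pattern were Plekho1 (0.925), Ly86 (0.872), Cd86 (0.869), Ctsh (0.868) and Fgd2 (0.857), followed by Gm6377, Erp29, Irf5, Unc93b1 and BC028528. The sums share libraries, and the values are descriptions.

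The comparison with PBS asked whether class II transcripts differed after WGP in each kind of antigen-presenting cell. All 10 members had at least 20 UMIs in each comparison, and none passed a 2-fold difference in B cells, conventional dendritic cells or the macrophage class at either time, on CPM with 10 added. Of all genes tested in B cells, 0.739% were at least 2-fold higher and 0.0935% lower after 3 days, and 0.447% and 0.114% after 7 days. In conventional dendritic cells these shares were 0.617% and 0.484% after 3 days, and 1.53% and 0.755% after 7 days. For the macrophage class they were 2.31% and 2.37% after 3 days, and 2.71% and 3.69% after 7 days.

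In B cells the classical genes differed little from PBS. The log2 ratio of the classical sum was 0.017 (0.0021 to 0.032) after 3 days and -0.018 after 7 days, with an interval that ended just below 0, and both changed sign under other settings. Over all B cells Ciita was higher at both times, by 0.29 (0.15 to 0.43) and 0.38 (0.21 to 0.54) on the log2 scale. At each time the interval spanned 0 in 1 kind of cells. Within Y cells its ratio was 0.012 (-0.20 to 0.22) and 0.40 (0.16 to 0.62), and within Xist cells 0.62 (0.37 to 0.87) and 0.11 (-0.23 to 0.44). The median change of the 10 members was 0.058 and 0.086 on the log2(CPM + 10) scale, beside 0.013 and -0.0094 over all genes tested. The cluster led by Ms4a1 lay below the other two B cell clusters in each library, with 11392, 12720.1 and 10980.3 CPM in the cluster led by Ighd and Fcer2a, 9869, 11422 and 10043 CPM in a cluster led by Ighd and Vpreb3, and 7775, 7790.4 and 8179 CPM in the one led by Ms4a1.

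Conventional dendritic cells as a class also stayed near PBS. The classical log2 ratio was -0.10 (-0.11 to -0.082) after 3 days and -0.11 (-0.12 to -0.10) after 7 days. The median over members was -0.087 and -0.052, beside -0.054 and -0.054 over all genes. Type 1 cells had 0.061 (0.041 to 0.080) and -0.0022 (-0.020 to 0.016). Type 2 cells were lower, at -0.27 (-0.30 to -0.25) and -0.18 (-0.20 to -0.16), with H2-Ab1 at 9336, 7164 and 7889 CPM.

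The direction for the dendritic class differed between Xist cells and Y cells. Within Y cells the ratio was 0.33 (0.30 to 0.37) and 0.32 (0.29 to 0.35), against 19570.5 CPM in the 50 Y cells of PBS. Within Xist cells it was -0.10 (-0.12 to -0.083) after 7 days, and 3-day WGP held too few such cells. In type 1 cells the Y cells held 26809, 27101 and 26909 CPM, level in the 3 libraries. Of the Y cells of the class, 30, 73 and 55 were type 1 and 18, 37 and 122 type 2, so the mix of types changed as well. The 18 type 2 Y cells of PBS were too few to give a value, and the Y-cell ratios of the class rest in part on them. In type 2 cells the Xist cells had a ratio of -0.18 (-0.20 to -0.15) after 7 days.

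In monocytes and macrophages, class II was lower after 3 days and higher after 7 days. The classical level was 11232 CPM (11163 to 11300.1) with PBS, 7260.4 CPM (7211 to 7309.9) after 3 days and 16933 CPM (16871 to 16996) after 7 days. This is a log2 ratio to PBS of -0.63 (-0.64 to -0.62) and 0.59 (0.58 to 0.60). H2-Eb1, at 3528, 1799 and 4728 CPM, was further below PBS after 3 days, at -0.97, than H2-Aa, at -0.44 (-0.46 to -0.42). Cd74 and H2-DMa moved with the classical genes, at -0.65 and -0.63 after 3 days and 0.56 and 0.61 after 7 days. With TMM scaling the classical ratios were -0.49 and 0.85, and with the barcodes above 10591 UMIs left out -0.29 and 0.35.

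The other members of the class split. Ciita had a log2 ratio of -0.22 (-0.36 to -0.079) after 3 days and 0.80 (0.68 to 0.91) after 7 days. H2-DMb2 was below PBS at both times, at -1.21 (-1.55 to -0.88) and -0.92 (-1.20 to -0.64), but its 3-day ratio was 0.20 when the members were kept among the clustering genes and 0.15 at a clustering resolution of 1.6. Without the 10 CPM added, H2-DMb2 after 3 days and H2-Oa after 7 days, at 1.07 (0.53 to 1.66), were thus past 2-fold. The H2-DMb2 ratios are those of the pooled class. Of its 217 H2-DMb2 UMIs in PBS, 158 were in the Retnla sub-cluster, which held 69, 8 and 5 cells in the 3 libraries. Outside it, Fcrls resident cells held 34, 17 and 4 H2-DMb2 UMIs in 386, 53 and 32 cells. Ly6C-high monocytes held 9, 35 and 34 in 36, 136 and 358 cells, and Ly6C-low monocytes 1, 1 and 5 in 113, 41 and 102. Cd209f resident cells held 8 in 175 PBS cells and 2 in 48 cells after 3 days. No common fall was seen over these states, and a ratio for the class without the Retnla cells was not computed. H2-Oa rests on 35, 31 and 134 UMIs and H2-Ob on 66, 61 and 146. The change was above 0 for 0 of the 10 members after 3 days and for 9 after 7 days, with medians of -0.56 and 0.54, beside -0.063 and -0.12 over all genes tested.

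The mix of states moved with these class values. Fcrls resident macrophages were 44.8%, 6.97% and 2.21% of the class, large peritoneal macrophages led by Cd5l 0.696%, 31.1% and 6.91%, and Ccl5 and Cxcl9 inflammatory macrophages 0.348%, 2.76% and 37.9%. The list that named the Cd5l cells also named the Cxcl13 sub-cluster, which was 3.83%, 1.58% and 0% of the class. The Cd5l cells scored 1.68 on that list and 1.04 on the list of Arg1 macrophages. Arg1 and Saa3 are among their leading genes. At a sub-clustering resolution of 0.4 an Arg1 macrophage sub-cluster held 392 and 263 cells after 3 and 7 days. The large peritoneal name then went to 33 PBS cells led by Cxcl13. The mix of mice moved as well. Within Xist cells the classical log2 ratio of the class was -0.035 (-0.062 to -0.0077) after 3 days and 0.44 (0.43 to 0.45) after 7 days. PBS held 6 Y cells, too few to compare, and from 3 to 7 days the Y cells went from 6707 to 18609 CPM, a log2 ratio of 1.47 (1.46 to 1.49). WGP, the sex of the mice and single mice cannot be told apart here.

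**Figure D5:**
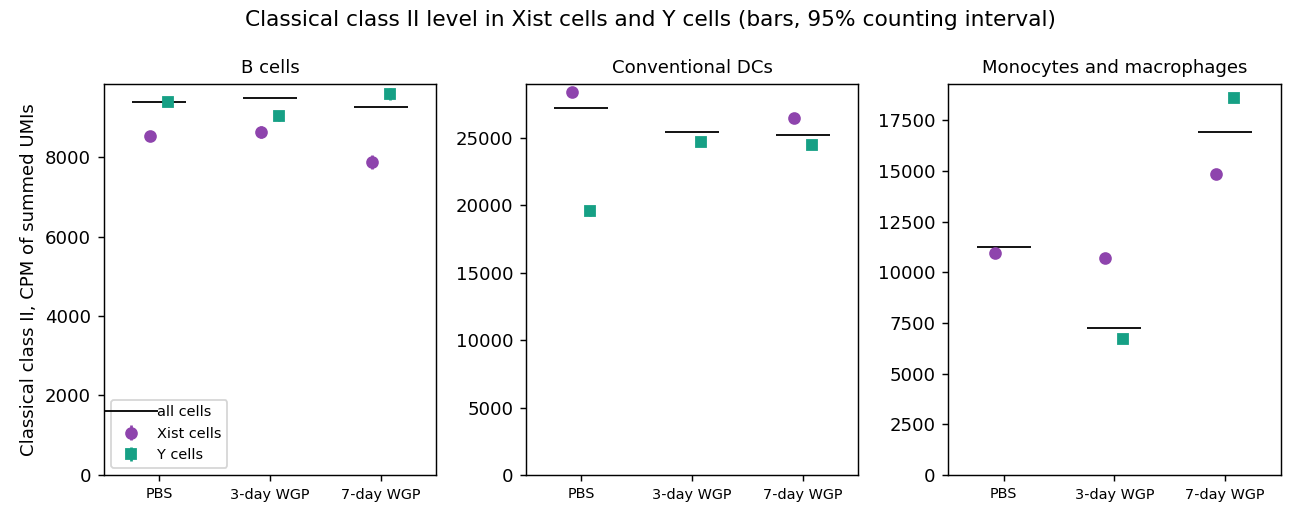
Classical class II level in Xist cells and in Y cells of the 3 classes by library (points, with 95% counting intervals), with the level in all cells as a black dash; values on fewer than 20 cells are left out. In monocytes and macrophages the Xist cells of PBS (10949 CPM) and 3-day WGP (10689 CPM) are close, and both kinds of cells are higher after 7 days.

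Within resident macrophages class II was higher after 3 days, while it was lower in the class. Fcrls resident macrophages held 13552, 21559.9 and 23614 CPM of classical transcript in 386, 53 and 32 cells. Their log2 ratio to PBS was 0.67 (0.64 to 0.70) after 3 days and 0.80 (0.77 to 0.84) after 7 days, and their Ciita level was 92.3, 163 and 207 CPM. The Cd209f resident cells held 3685 and 10551 CPM in PBS and after 3 days, a ratio of 1.52 (1.46 to 1.57), and had 9 cells after 7 days. Ly6C-low monocytes had 0.41 (0.29 to 0.53) and 0.71 (0.62 to 0.81), and within Xist cells 0.31 (0.20 to 0.42) after 7 days, with Cd74 at 0.016 (-0.10 to 0.14). Few of these monocytes carried the sum, as 78.8%, 68.3% and 74.5% of them had no classical UMI after thinning.

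The sex-linked transcripts of these resident cells differed as well. In PBS 377 Fcrls cells were Xist cells and 0 were Y cells, against 10 and 25 after 3 days, when the Y cells held 18787 CPM. With a sub-clustering resolution of 0.4, chosen after the data were seen, a single resident sub-cluster held 11721, 19257 and 20102 CPM in 592, 107 and 38 cells.

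Ly6C-high monocytes, the Ccr2-positive monocytes that enter inflamed tissue, differed the other way after 3 days. They held 17133, 9509 and 17766 CPM in 36, 136 and 358 cells, a log2 ratio to PBS of -0.85 (-0.89 to -0.81) and then 0.052 (0.016 to 0.089). After thinning, 33.3%, 19.9% and 10.1% of these cells held no classical UMI. In PBS 35 of them were Xist cells and 0 Y cells, and after 3 days 11 and 88. Within Xist cells the ratio was 0.21 (0.17 to 0.25) after 7 days.

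States that were rare in PBS could be compared between the WGP libraries, and in each of the 4 class II was higher after 7 days than after 3 days. Arg1 macrophages led by Gpnmb and Spp1 held 5790.4 and 12892 CPM, large peritoneal macrophages led by Cd5l 4527 and 8984 CPM, and the unnamed sub-cluster led by Tppp3 and Gbp2b 6064 and 16253 CPM. Ccl5 and Cxcl9 inflammatory macrophages held 12066 and 21691 CPM in 21 and 548 cells and carried 49.2% of the classical UMIs of the class after 7 days. The log2 ratios of the 4 states lay between 0.85 and 1.42. Within Y cells the ratio was 1.23 (1.20 to 1.27) for Arg1, 1.22 (1.18 to 1.26) for large peritoneal and 1.75 (1.69 to 1.81) for Tppp3 cells.

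The genes around class II were taken from lists by function. The enhanceosome list (Rfx5, Rfxap, Rfxank, Nfya, Nfyb, Nfyc and Creb1), the DNA-bound factors to which CIITA binds, had 0 of 7 genes past 2-fold in B cells, conventional dendritic cells or macrophages at either time. Rfx5 was at 10.7, 8.04 and 11.2 CPM in macrophages. Of 10 genes of interferon gamma signalling, 3 were at least 2-fold higher in macrophages after 3 days and 6 after 7 days. The transcription factor gene Irf1, which acts on Ciita, held 50.4, 143 and 324 CPM. Over the pooled class Irf1 was already higher after 3 days, when Ciita and the classical genes were lower. The states of the class differed in this. In Fcrls and Cd209f resident cells and in Ly6C-low monocytes, Irf1 and the classical level were both above PBS after 3 days. In Ly6C-high monocytes Irf1 was above PBS and the classical level below it. Within Xist cells of the class, the log2 ratio of Ciita was -0.0082 (-0.33 to 0.30) after 3 days and 0.47 (0.32 to 0.61) after 7 days, the first with an interval that spans 0.

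The list was also read in the other classes after 7 days. In conventional dendritic cells 5 of its 10 genes were at least 2-fold higher, among them Gbp2, a guanylate-binding protein gene, at 33.1, 79.6 and 336 CPM and the chemokine gene Cxcl9 at 72.6, 123 and 803 CPM. In B cells 2 of 10 were. These were Gbp2, at 30.9, 29.0 and 153 CPM, and Cxcl9, which reached 10.4 CPM beside 6.01 CPM in NK cells, 8.61 CPM in gamma-delta T cells and 46.6 CPM in T cells, which are background cells here. The median of the list was 1.78 in macrophages, 1.29 in conventional dendritic cells and 0.61 in B cells on the log2(CPM + 10) scale.

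Of the 5 endosomal processing genes tested, 2 were higher and 1 lower in macrophages after 3 days, and 0 and 2 after 7 days. Ctss, the cathepsin that trims the invariant chain, held 1898, 4075 and 3642 CPM, and Ctsl 186, 414 and 214 CPM. Cst3, the cystatin C gene, held 4276, 1820.0 and 1943 CPM and Lgmn, a lysosomal protease gene, 956, 692 and 364 CPM. Of the turnover genes March1, March8 and Cd83, none passed 2-fold in macrophages. Cd83, which protects surface class II from March1, was past it in conventional dendritic cells after 7 days, at 89.0, 177 and 257 CPM. Of the costimulatory genes, Cd40 passed it after 7 days in macrophages, at 36.0, 39.0 and 103 CPM, and in conventional dendritic cells, at 21.8, 47.2 and 126 CPM.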

How the data were processed

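Groups were taken from the sample labels, 1 library each. The authors made 3' droplet libraries (10x v3.1) and, per the labels, quantified them with Cell Ranger 3.1.0 on mm10. The deposited values are raw counts (UMIs of a gene in a barcode) for every barcode, and 0 columns of values were left unused. The members, gene lists and alternatives were chosen with earlier results of these data known.

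Barcodes with at least 1000 UMIs and at most 30% mitochondrial UMIs were kept, with median depths of 5755, 5754 and 8077 UMIs (PBS, then 3 and 7 days). Scrublet (scanpy 1.11.5) marked 0, 0 and 2 barcodes automatically, so the highest scores were removed up to 0.8% per 1000 barcodes (220, 190 and 139). This was decided after the automatic result was seen. Cells were clustered with Seurat 5.3.0 (sctransform 0.4.2, 30 principal components, Louvain resolution 0.8) after the members were removed from the variable genes. Clusters were named from marker lists (mean log2 fold of at least 1, or 0.5 for states, at least 3 markers raised, margin 0.5), and names stand for cells like these. Thresholds and the sub-clustering resolutions (0.8 for macrophages, 0.2 for dendritic cells) were set after the clusters were seen, and a dendritic sub-cluster led by T cell genes (66 cells) was left out.

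UMIs were summed per population and library and given as CPM of the sum, with exact Poisson intervals. Ratios have the conditional binomial interval, and shares of cells exact binomial intervals after thinning to 1000 UMIs. No test was made, since each group is 1 library. Genes past 2-fold were counted on CPM with 10 added, among genes with at least 20 UMIs in the libraries compared. Counting was tested on simulated data. Genes outside the members are those of the lists by function, and the 10 genes most like the classical mean among genes of at least 50 CPM. The level of 1 listed gene is not reported here. Alternatives were TMM scaling (edgeR 4.0.16), other filters and clusterings, free RNA subtraction, and Xist or Y cells alone.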

Additional observations from a re-analysis of the deposited data

Results flagged for a closer look

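Over all cells of a population, the classical class II log2 ratio to PBS had opposite signs after 3 and 7 days, outside counting error, in 5 populations. With 1 library per group the difference between the times was not tested. In monocytes and macrophages the ratios were -0.63 and 0.59, and in Ly6C-high monocytes -0.85 and 0.052. Plasma cells had 0.22 and -0.95, from 547 and 79 cells. Within their Y cells both were below 0, at -0.15 (-0.18 to -0.12) and -1.56 (-1.63 to -1.50), and within Xist cells, which were 36.7% and 5.44% of plasma cells with a sex-linked transcript in PBS and after 3 days, the 3-day ratio was 0.81 (0.70 to 0.91). B cells as a whole had 0.017 and -0.018, and the B cell cluster led by Ighd and Fcer2a 0.16 and -0.053. Within Y cells the B cell signs were the other way, at -0.059 (-0.081 to -0.037) and 0.030 (0.0046 to 0.055). Within Xist cells the B cell values were 0.017 (-0.014 to 0.047) and -0.11 (-0.15 to -0.077). In the Ighd and Fcer2a cluster both values were above 0 in Y cells, at 0.27 and 0.038 (-0.0089 to 0.085). Both were below 0 in its Xist cells, at -0.15 and -0.11.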

How the results depend on the processing

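Without replicates, a value of the classical sum counts as moved where it left its counting interval, and intervals are narrow. Of 63 alternative values of the classical log2 ratio to PBS, 25 stayed within it and 38 moved, and 9 changed sign, 6 in B cells, 3 in conventional dendritic cells and 0 in monocytes and macrophages. In B cells the values after 3 days that moved were -0.060 with TMM scaling, 0.10 with barcodes above the knee of 10591 UMIs left out, 0.049 with log-normalized clustering, 0.11 with a clustering resolution of 1.6 and -0.059 with Y cells alone. In B cells the values after 7 days that moved were -0.088 with TMM scaling, -0.069 with barcodes above the knee of 10591 UMIs left out, 0.0060 with a minimum of 2000 UMIs, 0.017 with log-normalized clustering, 0.0029 with a clustering resolution of 1.6, -0.11 with Xist cells alone and 0.030 with Y cells alone. In conventional dendritic cells the values after 3 days that moved were -0.035 with TMM scaling, 0.050 with barcodes above the knee of 10591 UMIs left out, -0.12 with no doublets removed and 0.33 with Y cells alone. In conventional dendritic cells the values after 7 days that moved were -0.028 with TMM scaling, -0.086 with barcodes above the knee of 10591 UMIs left out, -0.13 with free RNA subtracted, -0.13 with no doublets removed, -0.075 with log-normalized clustering and 0.32 with Y cells alone. In monocytes and macrophages the values after 3 days that moved were -0.49 with TMM scaling, -0.29 with barcodes above the knee of 10591 UMIs left out, -0.70 with free RNA subtracted, -0.58 with no doublets removed, -0.58 with log-normalized clustering, -0.56 with a clustering resolution of 1.6, -0.59 with the members among the clustering genes and -0.035 with Xist cells alone. In monocytes and macrophages the values after 7 days that moved were 0.85 with TMM scaling, 0.35 with barcodes above the knee of 10591 UMIs left out, 0.52 with free RNA subtracted, 0.66 with no doublets removed, 0.69 with log-normalized clustering, 0.71 with a clustering resolution of 1.6, 0.36 with the members among the clustering genes and 0.44 with Xist cells alone. With 1 CPM added in place of 10, the genes past 2-fold (higher and lower at 3 days, then at 7 days) went from 79, 10, 47 and 12 in B cells to 287 higher and 46 lower after 3 days and 189 and 177 after 7 days, from 60, 47, 154 and 76 in conventional dendritic cells to 196 higher and 271 lower after 3 days and 352 and 406 after 7 days, and from 264, 271, 314 and 428 in monocytes and macrophages to 551 higher and 971 lower after 3 days and 577 and 1362 after 7 days. Of 626 values of single members, 390 stayed and 234 moved, and 2 reversed, both for H2-DMb2 in macrophages after 3 days, at 0.20 with the members among the clustering genes and 0.15 at a resolution of 1.6, where other cells enter the class. Y cells in PBS macrophages (6) and Xist cells in 3-day dendritic cells (17) were too few to give a value. The causes were not tested. The few UMIs of H2-Oa and H2-Ob in macrophages limit the precision of their ratios. No paired analysis was possible because each group has 1 library.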

Other observations

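ILC2, innate lymphoid cells that are known to carry some class II, held H2-Oa above the level of T cells. The level was 78.6 CPM (63.7 to 96.0) in 273 PBS cells and 91.6 CPM (73.0 to 113) in 288 cells after 3 days, against 14.6, 10.5 and 14.0 CPM in T cells. After thinning, 9.16% and 9.38% of these cells had an H2-Oa UMI. Their H2-Ob level was 12.3 and 7.63 CPM and their classical level 366 and 105 CPM. The 7-day library held 11 such cells and is left aside.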
